A study of Mus musculus with 6 samples.

Results

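The genes described are 10 immediate early transcription factor genes, of 24063 gene symbols counted: the FOS family genes Fos, Fosb, Fosl1 and Fosl2, the JUN family genes Jun, Junb and Jund, and Egr1, Atf3 and Nr4a1. They were chosen by name, with earlier results of these data known, and all 10 were found and tested. They were measured by bulk RNAseq in endothelial cells (ECs) that were isolated with anti-CD31 conjugated magnetic beads from lungs of wild type male C57BL6 mice, with 3 libraries of a sham group and 3 of a PNX group, taken 7 days after unilateral pneumonectomy (PNX), surgery that takes out 1 lung and sets off growth of the other. The labels give an age of 8 weeks and the methods an older one, and each library was pooled from 2 mice. Sham mice underwent thoracotomy without PNX, so the surgery to the chest wall was common to both groups.

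Immediate early genes are transcribed within minutes of a stimulus such as a growth factor, stretch, shear stress or injury, without new protein synthesis, because the kinases of the MAPK pathways activate factors already bound at their promoters. FOS and JUN proteins pair through leucine zippers to form AP-1, which binds the sequence TGAGTCA and its relatives in genes of migration, matrix turnover and inflammation. Dissociation of a tissue with enzymes is known to induce the same genes in most cell types, ECs included. All 6 samples were minced and digested with collagenase before the beads were applied, and no undigested sample was analysed here, so that the level in the living lung and the level reached during the isolation cannot be told apart.

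The libraries held 29526989 to 81282871 counts each, with the 2 smallest totals in replicate 3 of the groups, and the 10 genes had from 200 to 110706 counts on a transcript in any library, so that counting error was small for all of them except Fosl1. According to the labels, replicates 1 and 2 in sham and in PNX were re-used from an earlier record (the earlier deposit), and replicate 3 was not (the later deposit). The methods count 3 replicates per group. Replicates 1 and 2 of a group were nearly as close as sampling noise allows (chi-square per degree of freedom 1.75 in sham and 1.57 in PNX, against 67.9 to 86.4 for pairs with replicate 3), so their counts were summed and the comparison rests on n = 2 samples per group, 1 of each deposit. The 8 endothelial marker genes, Pecam1 (CD31) among them, were present in every library, with a summed level of 7012 to 8258 CPM (counts scaled to a common library total with edgeR's TMM factors) in sham and 6400 to 7186 CPM after PNX. RNA of other lung cells was present too. The gene with the highest TPM (the count scaled by transcript length and by library) was the airway secretory gene Scgb1a1 in every sham library and the macrophage and alveolar type 2 gene Lyz2 in every PNX library. No marker counted in the files was at 0 in any library. In bulk samples fewer cells of a type and less RNA per cell cannot be told apart.

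The stretches of 250 bases before the start site are shown for Fos, the most abundant of the 10 genes, for Jun, which had the largest difference between the groups among the abundant ones, and for Nr4a1, which differed most between the deposits after Fosl2. The sequences are from RefSeq on GRCm38.p6, which held a window for 8 of the 10 genes, all but Fosl1 and Egr1. The Nr4a1 window precedes the start of the RefSeq transcript and lies inside the longer gene of GENCODE vM21. The windows of Fosl2 and Atf3 also lie inside their genes in GENCODE. That of Jund ends at 70697738, upstream of its GENCODE start at 70698949. Capitals mark, on either strand, the TGACG core of the cyclic AMP response element (CGTCA when it lies on the other strand), the sequence TGACATCA, a relative of the AP-1 site, and the TATA box TATAAA.
Fos, chr12:85473640-85473889, plus strand: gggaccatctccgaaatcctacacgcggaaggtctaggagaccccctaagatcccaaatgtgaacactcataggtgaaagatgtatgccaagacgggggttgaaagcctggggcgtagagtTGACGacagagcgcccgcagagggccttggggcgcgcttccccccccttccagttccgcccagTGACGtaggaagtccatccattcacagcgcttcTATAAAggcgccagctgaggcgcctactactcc
Jun, chr4:95052223-95052472, minus strand: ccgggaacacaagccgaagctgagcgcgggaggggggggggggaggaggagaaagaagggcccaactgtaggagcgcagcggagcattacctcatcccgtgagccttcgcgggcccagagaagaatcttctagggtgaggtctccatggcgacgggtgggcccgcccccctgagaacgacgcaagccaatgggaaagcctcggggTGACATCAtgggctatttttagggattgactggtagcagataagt
Nr4a1, chr15:101266596-101266845, plus strand: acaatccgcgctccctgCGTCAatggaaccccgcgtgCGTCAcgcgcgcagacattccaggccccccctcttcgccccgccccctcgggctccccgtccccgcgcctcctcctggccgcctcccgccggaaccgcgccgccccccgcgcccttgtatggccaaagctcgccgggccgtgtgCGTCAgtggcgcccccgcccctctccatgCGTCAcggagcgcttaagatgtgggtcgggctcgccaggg

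The Fos window held TGACG at positions -129 to -125 and -66 to -62 from the start site and TATAAA at -33 to -28. The Jun window held TGACATCA at -45 to -38, and the Nr4a1 window held CGTCA at 4 positions, beginning at -233, -213, -69 and -40. TGACG on either strand was found in the windows of 5 of the 8 genes, which were Fos, Fosb, Junb, Atf3 and Nr4a1, against 17.8% of 32841 windows of the same length over all genes. TGACATCA was found in 1 of 8 (Jun), against 2.93% of all windows, and TATAAA in 1 of 8 (Fos), against 12.4%. The whole cyclic AMP response element TGACGTCA, which contains TGACG, the AP-1 site TGAGTCA, the EGR site GCGTGGGCG and the CArG box, to which serum response factor binds, were found in 0 of the 8 windows, against 1.55%, 4.46%, 0.536% and 1.47% of all windows. A match of letters is a description of the window, and elements farther from the start site lie outside it.

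Most of the 10 genes were abundant in every library, sham and PNX alike. Compared per length, as TPM, Fos was the highest of the 10 genes in all 6 libraries, at 1431, 1425 and 1287 TPM in the sham libraries and 1279, 1301 and 1190 TPM in the PNX libraries. Here and in what follows the values of a group stand in the order of replicates 1, 2 and 3. Fos ranked 26th to 35th of 24063 symbols. Jun, the founding member of its family, ranked 47th to 174th, with 532 to 1136 TPM. The next levels by median TPM were those of Junb (568 to 697 TPM), Egr1 (493 to 630.5), Nr4a1 (345 to 722), Atf3 (343 to 472) and Fosb (301 to 337), and then Jund (130.2 to 202 TPM on each of 2 transcripts). The ranges of Junb and Egr1 overlapped, although Junb was the higher in each of the 6 libraries, and the range of Nr4a1 overlapped those of Jun, Junb, Egr1 and Atf3. Nr4a1 was above Junb and Egr1 in replicate 3 of both groups and below them in the other 4 libraries, and Jun was below Junb in PNX replicate 3. Fosl2 (40.5 to 107 TPM) lay below Jund in every library, and Fosl1 was the lowest by a wide margin at 6.45 to 14.8 TPM, where it ranked 7775th to 10580th. The plot of TPM by gene shows these levels by library.

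**Figure D1:**
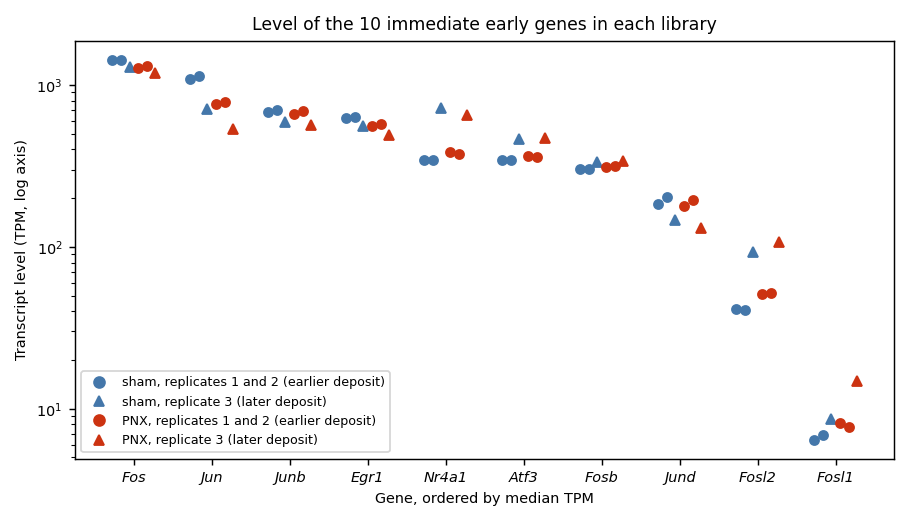
TPM (log axis) of each of the 10 genes in each of the 6 libraries, with circles for the earlier and triangles for the later deposit. Fos lies between 1190 and 1431 TPM in sham (blue) and PNX (red) libraries, while Fosl1 stays between 6.45 and 14.8 TPM.

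In the FOS family, whose members pair with JUN proteins and not with each other, Fos (chromosome 12, 85473890 to 85477273, plus strand of GRCm38, RefSeq transcript NM_010234) had 1183, 1179 and 1081 CPM in sham and 1082, 1101 and 982.5 CPM after PNX, or 1134 ± 88.2 and 1039 ± 65.3 CPM over the samples (mean ± SD, n = 2 per group). In each deposit the PNX libraries lay slightly below the sham libraries. The ratio of PNX to sham was 0.907 in the earlier deposit and 0.926 in the later one (exact 95% intervals 0.901 to 0.913 and 0.912 to 0.941, which cover counting error only, as do all such intervals here). Fosb (chromosome 7, 19302696 to 19310051, minus strand), which has the same partners as Fos, had 449, 454 and 507 CPM in sham and 474, 482 and 502 CPM after PNX. Its groups overlapped. The ratio was 1.04 in the earlier deposit (1.03 to 1.05) and 1.01 in the later (0.988 to 1.03), where the CPM, scaled over 6 libraries and not over the 4 samples, lay slightly lower after PNX.

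Fosl1 and Fosl2 encode FRA1 and FRA2, family members that lack the strong activation domain of Fos and usually follow it after a delay. Fosl1 (chromosome 19, 5447547 to 5455946, plus strand) had 4.34, 4.61 and 5.94 CPM in sham and 5.64, 5.28 and 9.96 CPM after PNX. It was higher after PNX in each deposit, by a ratio of 1.20 in the earlier (1.08 to 1.34) and 1.71, from 297 counts against 200, in the later (1.42 to 2.06). PNX replicate 3 lay above all other libraries. Fosl2 (chromosome 5, 32135801 to 32157842, plus strand) had 95.9, 93.7 and 219 CPM in sham and 122, 123 and 248 CPM after PNX, 1.27 and 1.15 times higher in the earlier and the later deposit. Here the later deposit stood apart, with both of its libraries above all 4 libraries of the earlier one.

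In the JUN family, whose members pair with each other as well as with FOS proteins, Jun (chromosome 4, 95049034 to 95052222, minus strand, NM_010591) had 1374, 1431 and 904 CPM in sham and 981, 1015 and 669 CPM after PNX, or 1157 ± 370 and 834 ± 223 CPM over the samples (mean ± SD, n = 2 per group). The PNX libraries were below the sham libraries of their own deposit, but PNX replicates 1 and 2 were above sham replicate 3, so that the groups as a whole overlapped. The ratio of PNX to sham was 0.699 in the earlier deposit (0.694 to 0.704) and 0.754 in the later one (0.741 to 0.768), and no other member had a lower ratio in either. Junb (chromosome 8, 84974484 to 84978718, minus strand), a weaker activator that can oppose Jun, had 493, 507 and 437 CPM in sham and 491, 510 and 412 CPM after PNX. These groups overlapped almost wholly, with ratios of 0.982 and 0.961. Jund (chromosome 8, 70698949 to 70700616, plus strand), which unlike the others is expressed at a steady level in resting cells, is counted on 2 transcripts whose counts are identical throughout. On either one it had 16839, 16452 and 5726 counts in sham and 15542, 14846 and 4406 counts after PNX, which gave ratios of 0.975 and 0.886, while the fits below used the sum of both transcripts.

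Egr1, a zinc finger factor induced through serum response factor in parallel with Fos, had 754, 765 and 684 CPM in sham and 689, 712 and 598 CPM after PNX, a ratio of 0.905 in the earlier deposit and 0.891 in the later. Its PNX libraries were below the sham libraries of their own deposit. Atf3 (chromosome 1, 191170296 to 191218039, minus strand), a stress-induced partner of JUN proteins, had 268.5, 268 and 370 CPM in sham and 289, 285 and 368 CPM after PNX. Nr4a1 (chromosome 15, 101254269 to 101274795, plus strand), an orphan nuclear receptor induced by growth factors and inflammatory signals, had 337, 339 and 717 CPM in sham and 385, 376 and 634 CPM after PNX. Nr4a1 was 1.11 times higher after PNX in the earlier deposit (1.09 to 1.12) and 0.902 times as high in the later one (0.885 to 0.919), so that its difference had opposite signs in the deposits.

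**Figure D2:**
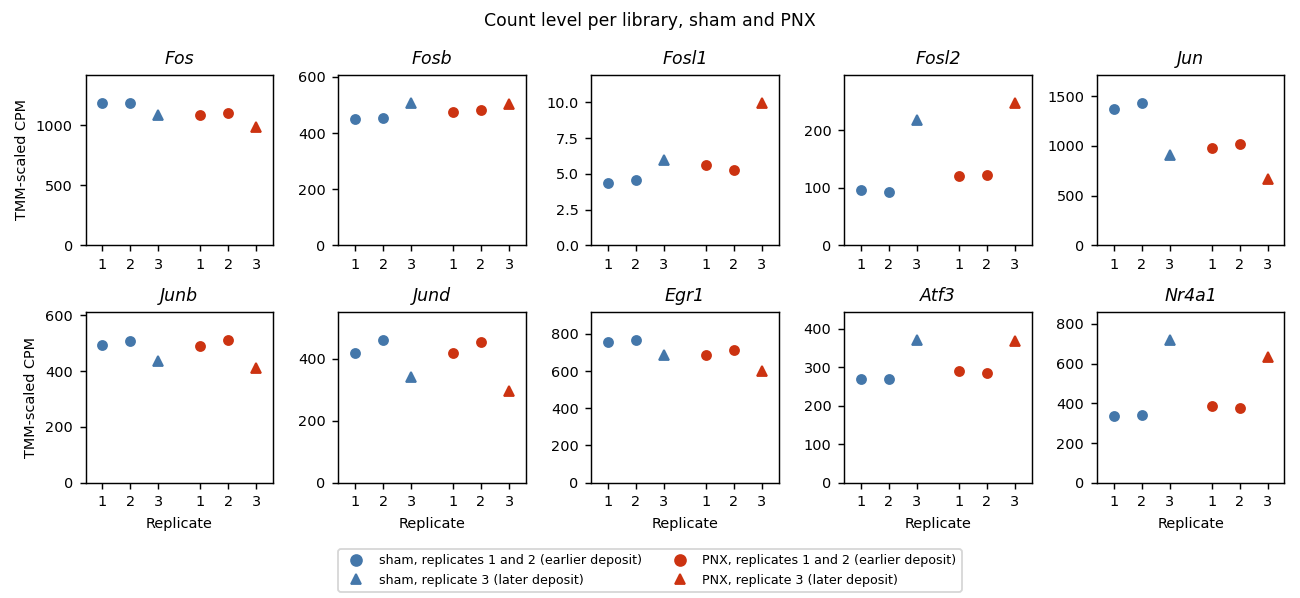
TMM-scaled CPM of each gene by replicate, 1 panel a gene with its axis from 0, sham in blue and PNX in red, and triangles for the later deposit (Jund is the sum of 2 transcripts with equal counts). Jun is lower in PNX than in sham within each deposit, and Fosl2 and Nr4a1 are highest in the 2 libraries of the later deposit.

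The comparison of PNX with sham asks whether regenerative growth of the remaining lung goes with another level of these genes in its ECs. In edgeR's quasi-likelihood test on the 4 samples, at the thresholds of the study's methods (adjusted p under 0.01 with at least a doubling or halving, a log2 fold change beyond 1 or -1), 0 of the 10 genes passed and 0 of 16598 genes tested did (0%), with 2076 genes at an unadjusted p under 0.05 (12.5%) and 0 of the 10 among them. On the same samples DESeq2 called 572 genes (3.45%) and limma-voom 0 (2174 at an unadjusted p under 0.05), and neither called any of the 10. The study applied its thresholds in DESeq2 with 3 replicates per group. DESeq2 on the 6 libraries called 921 genes here (5.66%), again with 0 of the 10. The absolute log2 fold change of the 10 genes had a median of 0.11, beside 0.22 over all genes tested, and 4 were above and 6 below 0. The highest and the lowest log2 fold change were 0.57 for Fosl1 (SE, the standard error, 0.36, with an edgeR adjusted p = 0.626) and -0.47 for Jun (SE 0.32, edgeR adjusted p = 0.647). Without PNX replicate 3 they were 0.07 and -0.22, without sham replicate 3 Jun was at -0.75, and without replicates 1 and 2 of sham the values were 0.37 and -0.12, or 0.96 and -0.77 without those of PNX.

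Fos and 4 other abundant members had log2 fold changes near 0. Fos had a log2 fold change of -0.13 with an approximate 95% interval of -0.56 to 0.31, Fosb 0.03 (-0.36 to 0.42), Junb -0.04 (-0.50 to 0.42), Atf3 0.04 (-0.55 to 0.64) and Egr1 -0.15 (-0.60 to 0.29). Changes of 2-fold, a log2 value of 1, lie outside these 5 intervals, whereas the interval of Jun reached -1.31, that of Fosl1 1.52, that of Fosl2 1.60 and that of Nr4a1 -1.20 to 1.10. The interval of Jund, from -0.76 to 0.57, also left them out. Markers of other cells moved between the groups: summed epithelial markers were at 9424 to 9920 CPM in sham and 2888 to 6456 CPM after PNX, macrophage markers at 300 to 652 and 686 to 907 CPM, and mesothelial markers at 74.0 to 270 and 221 to 689.5 CPM. The part of these cells in the log2 fold changes was not tested.

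Samples were paired by deposit, and once the deposit entered the fit as the replicate block, the biological coefficient of variation went from 0.236 to 0.0973 and the intervals narrowed, while 0 of the 10 genes passed both thresholds, beside 849 genes or 5.12% of those tested. Jun was at -0.46 on the log2 scale (SE 0.11, edgeR adjusted p = 0.0248 with the replicate block), which passes at an adjusted p under 0.05 with no limit on the fold change. By that rule 1 of 10 genes passed, and 21.6% of all genes did. Fosl2 (log2 fold change 0.27, SE 0.09, edgeR adjusted p = 0.0616) and Fosl1 (0.50, SE 0.17, edgeR adjusted p = 0.0735) did not pass, and the other 7 had adjusted p between 0.322 and 0.998. Fos then had an interval of -0.38 to 0.13, Egr1 of -0.39 to 0.08 and Nr4a1 of -0.26 to 0.26. The blocked fit leaves 1 residual degree of freedom. When all 6 libraries entered separately beside the block, so that the near-duplicates counted as independent, 5 of the 10 genes had an adjusted p under 0.05 (Fos, Fosl1, Fosl2, Jun and Egr1), as had 51.6% of all genes. Over the 22 alternatives the adjusted p of Jun ranged from 1.22e-04 to 0.998.

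**Figure D3:**
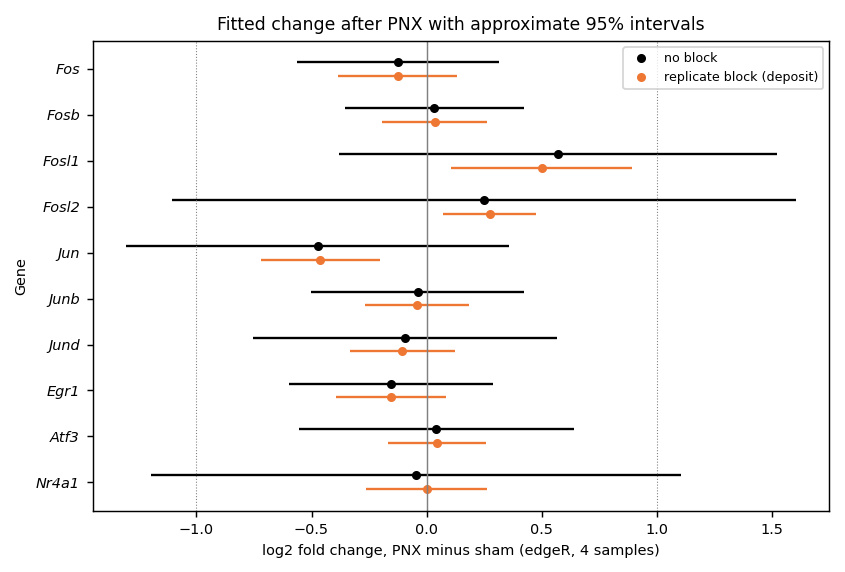
Fitted log2 fold change of PNX minus sham (points) with approximate 95% intervals (lines) from edgeR on 4 samples, without a block (black) and with the deposit as replicate block (orange). Dotted lines mark 2-fold changes; with the block only Jun, Fosl1 and Fosl2 have intervals that leave out 0.

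By library, the 3 PNX and the 3 sham values overlapped for every one of the 10 genes (0 separated), whereas 18.9% of 16263 genes had every PNX value above and 18.1% every PNX value below those of sham. Compared only within a deposit, every PNX library was below every sham library for Fos, Jun and Egr1, and above for Fosl1 and Fosl2. Of all genes 34.2% were below and 31.7% above by this rule, so that 3 and 2 of 10 genes are near the background.

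In the blocked fit, the fitted difference between the deposits was larger in size than that between PNX and sham for each of the 10 genes. For Fos the terms were close, at -0.14 and -0.13 (SE 0.11 each), and the terms were not tested against each other. Within single groups and deposits the order could differ. Fosl1 differed by 0.38 between deposits in sham, and by 0.77 between PNX and sham in the later deposit. The absolute log2 value of the deposit term had a median of 0.43, beside 0.12 for PNX against sham in the same fit, and of 0.26 beside 0.22 over all genes tested. In this blocked fit, whose deposit term compares the later with the earlier libraries after allowance for the group, Fosl2 was 1.11 log2 units higher in the later deposit (SE 0.09, edgeR adjusted p = 5.97e-04) and passed both thresholds, beside 550 genes or 3.31% of all. Nr4a1 was higher by 0.91 (SE 0.11, edgeR adjusted p = 0.0022), just under the fold threshold. Jun was lower, at -0.61 (SE 0.11, edgeR adjusted p = 0.00829), and Jund too, at -0.46 (edgeR adjusted p = 0.0135), while Atf3 was higher by 0.41 (edgeR adjusted p = 0.0175) and Fosl1 by 0.64 (edgeR adjusted p = 0.0302). At an adjusted p under 0.05 with no limit on the fold change these 6 of the 10 genes passed, beside 26.3% of all genes.

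The deposit terms of Fos (-0.14), Fosb (0.12), Egr1 (-0.19) and Junb (-0.24) did not pass at an adjusted p under 0.05. This does not show that these genes were level across deposits. Their approximate intervals were -0.40 to 0.11 for Fos and -0.11 to 0.34 for Fosb. That of Egr1 ran from -0.43 to 0.05, and that of Junb, from -0.47 to -0.01, left out 0. Within sham, Fosl2 was 2.26 times and Nr4a1 2.08 times as high in the later as in the earlier deposit, and within PNX 2.06 times and 1.69 times. Jun was at 0.631 of the earlier level in sham and 0.681 in PNX. Markers of other cells moved with the deposit as well, in both directions. The 3 neutrophil markers counted had a summed level of 135 to 158 CPM in the earlier libraries against 315 and 412 CPM in the later ones. The 4 mesothelial markers had 74.0 to 223 against 270 and 689.5 CPM. The 5 macrophage markers had 300 to 688 against 652 and 907 CPM, although Marco among them was lower in the later deposit (log2 difference -0.59). Summed epithelial markers were lower, at 9828 and 9920 against 9424 CPM in sham and 6456 and 6448 against 2888 CPM in PNX. Among these, Epcam (0.46), Scgb1a1 (0.41) and Foxj1 (0.03) went the other way in the fit. The part of these other cells in the differences between deposits was not tested.

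**Figure D4:**
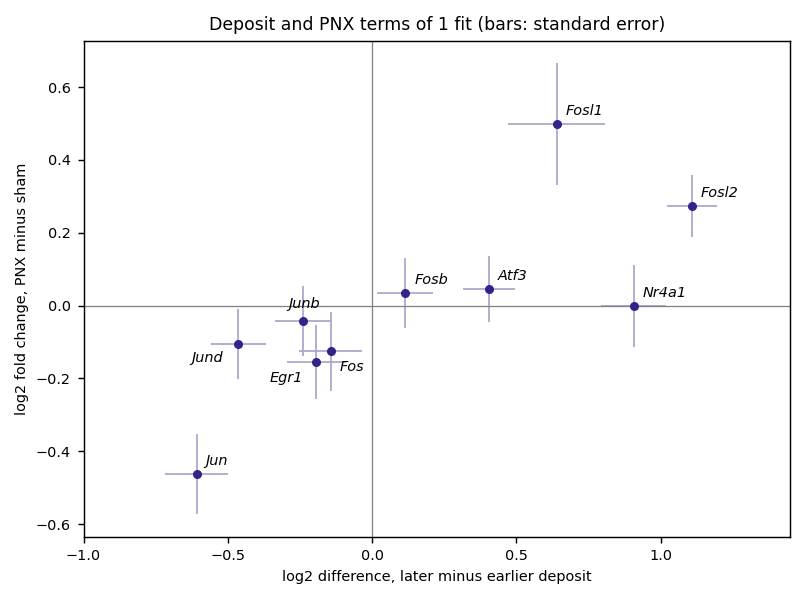
Deposit term (horizontal axis, log2, later minus earlier) and PNX term (vertical axis, log2, PNX minus sham) of the same blocked edgeR fit for each of the 10 genes, with standard errors as bars. Fosl2 and Nr4a1 lie far to the right at 1.11 and 0.91, and Jun lies at -0.61 and -0.46.

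The make-up of the AP-1 families followed these differences. Of the TPM of the JUN family (1 transcript of Jund), Jun held 55.9%, 55.8% and 48.9% in sham and 47.6%, 47.2% and 43.2% after PNX. Junb held 34.7%, 34.3% and 40.9% in sham and 41.2%, 41.1% and 46.2% after PNX, so that the largest share was that of Jun in every library except PNX replicate 3, where it was that of Junb. Of the TPM of the FOS family, Fos held 74.7% to 80.4% in sham and 72.2% to 77.6% after PNX, and Fosl1 at most 0.898%. The ratio of Jun to Fos in TPM was 0.763, 0.797 and 0.549 in sham and 0.595, 0.606 and 0.447 after PNX. It was lower after PNX within each deposit. These shares are ratios within a library and do not depend on the scaling between libraries, and show unequal differences among the members, not which member differed.

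**Figure D5:**
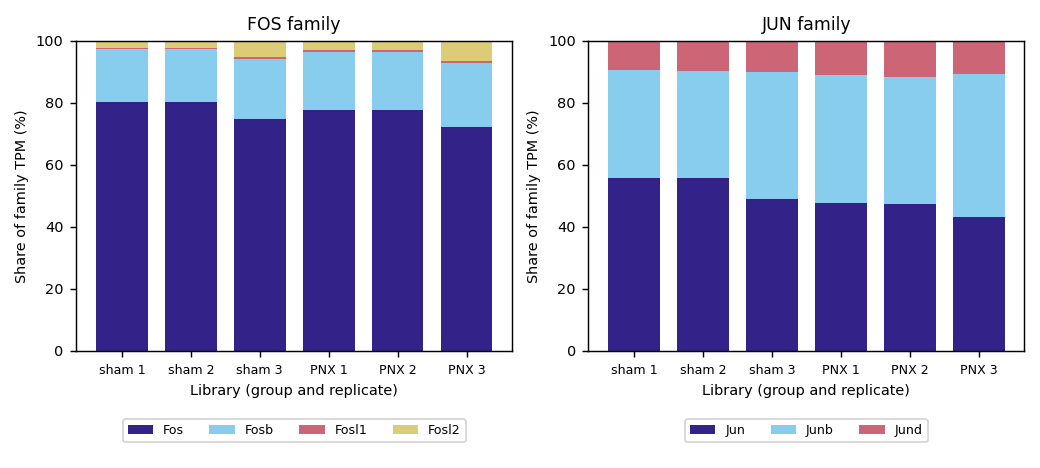
Share (%) of the summed TPM of the FOS family (left) and the JUN family (right) held by each member in each library, as stacked bars from 0 to 100. Jun holds 48.9 to 55.9% of the JUN family in sham and 43.2 to 47.6% after PNX.

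All 26 genes of a list of other immediate early genes were tested, and 0 passed both thresholds in edgeR on 4 samples without or with the replicate block. With 6 separate libraries Egr4, with a mean count of 18.5, passed in edgeR with the block and in DESeq2 without it. Their median log2 fold change was -0.11 beside -0.01 over all genes. The highest member with a mean count of at least 50 was Myc, a driver of cell growth, with 63.9, 67.0 and 70.5 CPM in sham and 89.8, 92.0 and 97.0 CPM after PNX (log2 fold change 0.47, edgeR adjusted p = 0.257, with the replicate block 0.00687). The lowest was Ier3, a regulator of survival under stress, with 325, 331 and 274 CPM in sham and 209, 213 and 143 CPM after PNX (log2 fold change -0.77, edgeR adjusted p = 0.298, with the replicate block 0.00194). Both had groups that did not overlap, as had 18.9% of 16263 genes with PNX above and 18.1% with PNX below sham. Between deposits the 2 other NR4A receptors were higher in the later one like Nr4a1, Nr4a2 by 0.90 and Nr4a3 by 1.19 on the log2 scale (edgeR adjusted p = 0.00211 and 0.00182). They were named after their values were seen.

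Of 15 upstream kinases and factors, 12 feedback inhibitors and 10 further bZIP genes that can pair with AP-1 proteins, 0 passed both thresholds in edgeR on 4 samples, without or with the replicate block. Their median log2 fold changes were -0.09, -0.08 and -0.02. Among the upstream genes Mapk7 (ERK5) had the highest log2 fold change, 0.22, and Mkl2, a coactivator of serum response factor, the lowest, at -0.43 (edgeR adjusted p = 0.353, with the replicate block 0.00982). Among the feedback inhibitors the ends were Spry4 (0.32) and the ERK phosphatase Dusp6 (-0.34), and among the bZIP genes the lowest was Batf2 (-0.54).

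Of 13 genes that textbooks list as AP-1 targets, 0 passed in edgeR on 4 samples without the replicate block. With the block 6 passed, all higher after PNX, beside 849 genes or 5.12% of all tested, 645 of them higher. DESeq2 on the 4 samples without the block called 5, beside 572 genes or 3.45%. The 13 had a median log2 fold change of 0.66, beside -0.01 over all genes. The 6 of the blocked fit were Timp1, Mmp10 and Mmp13 of matrix turnover, the monocyte attractant Ccl2, the heme oxygenase gene Hmox1 and the matrix protein gene Spp1. Of these, Mmp10 had a mean count of only 13.5 and at most 0.0594 CPM in a sham library. Timp1, an inhibitor of metalloproteinases, had 9.45, 7.69 and 9.50 CPM in sham and 87.6, 84.3 and 130.2 CPM after PNX (log2 fold change 3.58, edgeR adjusted p = 0.072, with the replicate block 1.63e-05). Mmp3 was the lowest of the list at -0.34. Some of these targets were known to differ in these libraries when the list was made, so their number is not independent evidence, and they are regulated by many other factors too. Of the 6 fibroblast markers 5 were higher after PNX too, while Pdgfra was lower (log2 fold change -0.45). The 6 together had a summed level of 1039 to 1252 CPM in sham and 3378 to 4860 CPM after PNX. The part of this in the targets was not tested.

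Heat shock genes, which are also induced when tissue is dissociated, were 12, of which 0 passed between PNX and sham in edgeR on 4 samples without or with the replicate block (median log2 fold change 0.16, from -0.28 for Dnajb4 to 0.32 for Hspe1). Between deposits 3 of the 12 passed, all lower in the later one, beside 550 or 3.31% of all genes, of which 115 (0.693%) were lower. These were Hspa1a (-1.18), Hspa1b (-1.55) and Hspb1 (-1.34), and Hspa1a and Hspa1b are near-identical copies among which reads may be divided uncertainly. The 12 genes had a median log2 difference between deposits of -0.50, from -1.55 for Hspa1b to -0.05 for Bag3. Those that passed were named after their values were seen. Hspa1b had 744, 761 and 272 CPM in sham and 659, 665 and 214 CPM after PNX. It was thus lower in the same libraries in which Jun was lower and Nr4a1 and Fosl2 were higher. A link between these differences was not tested.

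Likeness of profile was measured as the root mean square distance between log2 CPM profiles, each centred on its own mean, over the 6 libraries. Among 14289 other genes with a mean count of at least 50, those near to Fos included Limk2, 6030458C11Rik, Suds3 and Ktn1, at distances of 0.0148 to 0.0171. Egr1 was the 53rd nearest, at 0.0304, and Junb the 850th, whereas Nr4a1 ranked 12392nd and Fosl2 13116th. The nearest to Jun were 5 transcripts of the protocadherin alpha cluster (Pcdhac1, Pcdha5, Pcdha12, Pcdha3 and Pcdha4, at 0.0364 to 0.0375), which share exons, so that reads of those exons cannot be assigned to 1 of them, and the nearest member was Jund, ranked 1327th. The nearest to the mean profile of Fos, Fosb, Junb, Egr1, Atf3 and Nr4a1 were Fbxw5, Napa, Rpl21, Arl8a and Armc5. The deposit terms of the averaged genes had both signs. Those of Fosb (0.12), Atf3 (0.41) and Nr4a1 (0.91) were above 0, and those of Fos (-0.14), Egr1 (-0.19) and Junb (-0.24) below. Their mean profile therefore need not resemble any of them. With 2 of 3 libraries in each group being near-duplicates, these distances describe 4 distinct samples.

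Overlaps with other annotated genes may limit some counts. The libraries were stranded, but no source says that reads were counted by strand. Whether reads of such pairs were kept apart is therefore not known. The overlaps are of whole annotated genes, and their exons were not compared. In GENCODE vM21, Jun overlaps the antisense gene Junos, Jund the antisense gene Gm11175, Junb the gene Prdx2 and Fosl1 the gene Ccdc85b, each on the opposite strand, and Atf3 overlaps a small RNA gene, Gm24748. Fos, Fosb, Fosl2, Egr1 and Nr4a1 overlap no other annotated gene.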

How the data were processed

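RNA was sequenced from lung ECs of 3 sham and 3 PNX libraries. The authors prepared stranded, paired-end mRNA libraries and processed the reads on Basepair with mm10. The submitters' processing notes name STAR, and neither its version nor the counting rule is given in the sources used here. For each library the authors deposited a raw count per RefSeq transcript (33068 transcripts), with FPKM (scaled by length and library) and TPM (scaled to a fixed total), also per transcript. FPKM was not used further. The deposited TPM served for levels between genes (transcript with the highest total) and entered no test.

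Counts were summed per symbol. Replicates 1 and 2 of a group were summed to 1 sample. The quasi-likelihood test was that of edgeR (version 4.0.16, R 4.3.3), after filterByExpr and TMM scaling, and p-values were adjusted by Benjamini-Hochberg across the whole table. The alternatives used DESeq2 (1.42.0) and voom of limma (3.58.1), other scalings and filters, and left out each library. Standard errors are the log2 fold change divided by the square root of F, and intervals use the t distribution of that fit, both approximate. Pairing rests on the deposit mark in the labels; over 14290 genes the deposit difference in sham and in PNX correlated across genes (Pearson's r = 0.725). The methods give 3 replicates per group, each pooled from 2 mice; replicates 1 and 2 were summed here because their counts were so close, and the fits with 6 libraries keep them apart. Exact intervals on ratios are Clopper-Pearson at 95%. CPM per library used TMM over 6 libraries with 16263 genes. The named genes are the 10 members, the highest and lowest log2 fold change of each list at a mean count of at least 50, the nearest profiles, and the called targets. Some genes that this rule names are not reported here. Members and lists were chosen with earlier results of these data known. Positions are from GENCODE vM21 (GRCm38, the same build as mm10).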

Additional observations from a re-analysis of the deposited data

Results flagged for a closer look

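Nr4a1 had PNX against sham differences of opposite direction in the deposits. In the earlier deposit both PNX libraries were above both sham libraries, by 0.148 on the log2 scale, and in the later one the PNX library was below the sham library, at -0.150 on the log2 scale. The difference between the deposits was not tested, since each deposit holds 1 distinct sample per group.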

How the results depend on the processing

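Over 22 alternatives to the fit without block, 0 of the 10 genes passed both thresholds in any, and 205 of 220 log2 fold changes kept their sign, with Fos, Egr1 and Jun below 0 and Fosl1 above 0 in all. Most of the 15 changes of sign came when libraries were left out, which unbalances the deposits; the log2 fold change then lay between -0.048 and 0.12 for Fosb, -0.36 and 0.96 for Fosl2, -0.17 and 0.083 for Junb, -0.38 and 0.15 for Jund, -0.17 and 0.28 for Atf3 and -0.50 and 0.58 for Nr4a1, and between -0.77 and -0.12 for Jun and 0.07 and 0.96 for Fosl1. Nr4a1 was also at 0.0033 with 6 libraries as separate replicates, at 0.0566 with these and the replicate block and at 0.0024 in DESeq2 on 6 libraries. The number of genes called was 849 with the replicate block, 409 with 6 libraries as separate replicates, 1104 with these and the replicate block, 572 in DESeq2 on 4 samples, 921 on 6 libraries and 810 on 4 samples with replicate block, and 0 to 2 with libraries left out. The replicate block changed no call of the 10 genes at both thresholds. In an alternative chosen after seeing the data, replicate 1 or 2 of a group was left out of the blocked fit: Jun kept an adjusted p of 0.0234 to 0.0315 (edgeR), and the number of genes called was 668 to 863, or 485 without PNX replicate 1. Textbook AP-1 targets called were 6, 5 and 6 in the first 3 of these fits and 5, 6 and 4 in those of DESeq2, and other immediate early genes 1 (Egr4, higher) with 6 separate libraries and the replicate block and 1 in DESeq2 on 6 libraries. Between deposits 238 to 558 genes were called with a library left out, lowest without PNX replicate 1, and 1 member in each; at an adjusted p under 0.05 with no fold limit 4367 genes and 6 members were. The deposit differences of the 10 genes kept their direction under all 14 alternatives. With sham or PNX replicate 3 left out the deposit term could not be tested, for lack of residual degrees of freedom. Depth limited only Fosl1, with 200 to 419 counts.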
